A study of Ovis aries with 8 samples.

Results

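*TIMELESS* and *CSNK1E*, which encode a clock-associated protein of the DNA replication fork and a kinase of clock proteins, were followed through 8 microarrays of the fetal sheep hypothalamus. All probes whose design name or description on the array names either gene were taken. That gave 3 probes for 2 genes, 1 for *TIMELESS* and 2 for *CSNK1E*, among 15008 probes and 914 genes that could be named. The pair was picked with their differences between the groups already known, so those differences are described here without a test.

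The study asked which hypothalamic transcripts differ after the brain of a late-gestation sheep fetus is exposed to estradiol-3-sulphate, a sulphated and by itself inactive form of estradiol. In each of 4 twin pairs, 1 fetus, allotted at random, received estradiol-3-sulphate at 1 mg per day through a mini-pump and a catheter in the lateral ventricle, and these 4 fetuses are called estradiol sulphate. The 4 co-twins, called vehicle, underwent the same surgery with saline according to the treatment protocol, although the design text calls them untreated. Each fetus gave 1 array, so a group holds 4 animals. Surgery fell between gestational days 120 and 127 and tissue collection between days 130 and 134. The infusion is put at 7 to 12 days in one description and at 7 to 10 days in another. All RNA had been kept frozen for 7 years before labelling. The labels name neither the hour of tissue collection, on which clock transcripts depend, nor the arrays that hold co-twins.

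The mammalian clock is a feedback loop in which the transcription factors CLOCK and BMAL1 drive the *PER* and *CRY* genes, whose proteins return to the nucleus and repress their own transcription. Casein kinase 1 epsilon, the product of *CSNK1E*, and its close relative casein kinase 1 delta phosphorylate PER proteins and so set their stability and the pace of the loop, and the hamster *tau* mutation, which shortens the daily period, lies in this kinase. TIMELESS was named for the *Drosophila* clock gene. In mammals it binds TIPIN and travels with the replication fork, and it has also been found with PER and CRY proteins. The suprachiasmatic nucleus of the hypothalamus holds the central clock of the mammalian brain, and fetal clocks are set in part by the mother.

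The probes are shown here because each result below rests on these 60 bases alone. Capitals mark the longest stretch that is identical, on the same strand, in any other probe of the array.
TIMELESS: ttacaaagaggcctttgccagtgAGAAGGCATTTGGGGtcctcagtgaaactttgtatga
CSNK1E probe 1: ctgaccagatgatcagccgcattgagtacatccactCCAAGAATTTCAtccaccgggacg
CSNK1E probe 2: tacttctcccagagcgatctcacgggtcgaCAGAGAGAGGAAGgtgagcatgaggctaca

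The *TIMELESS* probe was designed on a sheep *timeless* mRNA, starts at base 362 of it and has a GC content of 45.0%. *CSNK1E* probe 1 starts at base 325 of a partial sheep coding sequence for casein kinase 1 epsilon and has a GC content of 51.7%. *CSNK1E* probe 2 starts at base 1328 of an assembled expressed-sequence cluster and has a GC content of 55.0%, and its name rests on the design's remark that this cluster resembles hamster casein kinase 1 epsilon. The longest stretch shared with another probe was 15 bases for *TIMELESS*, 12 bases for *CSNK1E* probe 1 and 13 bases for *CSNK1E* probe 2. No stretch longer than 5 bases was shared among these probes or between any of them and the probe for *CSNK1D*, which encodes casein kinase 1 delta. That compares probes only, and whether a *CSNK1E* probe also detects *CSNK1D* transcript was not tested. No position in the genome is given for them, because the array design lists them as unmapped.

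All 3 probes were well above background on all 8 arrays, and none was saturated or carried an outlier flag. For the comparisons, the processed intensity of each probe was divided by the 75th percentile of its array and put on the log2 scale, here called the log2 level. Differences are estradiol sulphate minus vehicle on that scale. The SE of a difference comes from the limma fit over all probes kept, which draws each probe's variance towards a common value. It is therefore not the SE that the SDs of the groups would give. In tissue RNA, fewer cells that express a gene and less RNA per cell cannot be told apart.

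*TIMELESS* was brighter in every estradiol sulphate fetus than in any vehicle fetus. The scanner gave it a processed intensity of 285.6, 299.0, 309.7 and 185.6 in the estradiol sulphate fetuses, replicates 1 to 4, against 144.5, 91.9, 71.3 and 76.1 in vehicle replicates 1 to 4. Before scaling, that is a mean of 270 ± 57.1 in estradiol sulphate fetuses and 95.9 ± 33.5 in vehicle fetuses (SD, n = 4 each), a ratio of 2.81. The estradiol sulphate arrays were brighter as a whole, so part of that ratio is removed by scaling. The log2 level was -2.57, -2.77, -2.86 and -3.09 in estradiol sulphate replicates 1 to 4, against -3.48, -4.01, -4.19 and -3.67 in vehicle replicates 1 to 4. The dimmest estradiol sulphate fetus, replicate 4, lay 0.38 above the brightest vehicle fetus, replicate 1. The means were -2.82 ± 0.22 in estradiol sulphate fetuses and -3.84 ± 0.32 in vehicle fetuses (SD, n = 4 each), a difference of 1.01 (SE 0.18), or 2.02-fold.

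*CSNK1E* probe 1 showed the same order of groups with a smaller difference. The scanner gave it a processed intensity of 247.1, 285.6, 310.0 and 192.6 in the estradiol sulphate fetuses, replicates 1 to 4, against 142.8, 110.7, 146.3 and 79.7 in vehicle replicates 1 to 4. The unscaled means were 259 ± 51.2 in estradiol sulphate fetuses and 120 ± 31.2 in vehicle fetuses (SD, n = 4 each), a ratio of 2.16. On the log2 scale the levels were -2.77, -2.84, -2.86 and -3.04 in estradiol sulphate replicates 1 to 4, against -3.49, -3.74, -3.15 and -3.60 in vehicle replicates 1 to 4. The groups did not overlap, but the gap between estradiol sulphate replicate 4 and vehicle replicate 3 was only 0.11. Mean log2 levels were -2.88 ± 0.11 in estradiol sulphate fetuses and -3.50 ± 0.25 in vehicle fetuses (SD, n = 4 each), which differ by 0.62 (SE 0.15), or 1.54-fold. The estradiol sulphate fetuses spanned 0.27 log2 units and the vehicle fetuses 0.59.

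*CSNK1E* probe 2 was far brighter and its groups overlapped. The scanner gave it a processed intensity of 2620.8, 4227.7, 3811.8 and 2261.8 in the estradiol sulphate fetuses, replicates 1 to 4, against 1707.4, 1564.2, 1538.0 and 1991.8 in vehicle replicates 1 to 4, with means of 3231 ± 939 and 1700 ± 208 (SD, n = 4 each). Before scaling, all 4 estradiol sulphate fetuses were thus above all 4 vehicle fetuses, with a ratio of means of 1.90. After scaling, the log2 level was 0.63, 1.05, 0.76 and 0.51 in estradiol sulphate replicates 1 to 4, against 0.09, 0.08, 0.25 and 1.04 in vehicle replicates 1 to 4. Vehicle replicate 4, whose array was the dimmest of the 8 with a 75th percentile of 969, stood apart from the other vehicle fetuses and at the height of the brightest estradiol sulphate fetus. The means were 0.74 ± 0.23 in estradiol sulphate fetuses and 0.36 ± 0.46 in vehicle fetuses (SD, n = 4 each), a difference of 0.38 (SE 0.23), or 1.30-fold. Without vehicle replicate 4 the difference was 0.60. Whether the 2 *CSNK1E* probes differ from each other in their response was not tested, and the levels of 2 probes cannot be set against each other on an array.

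**Figure D1:**
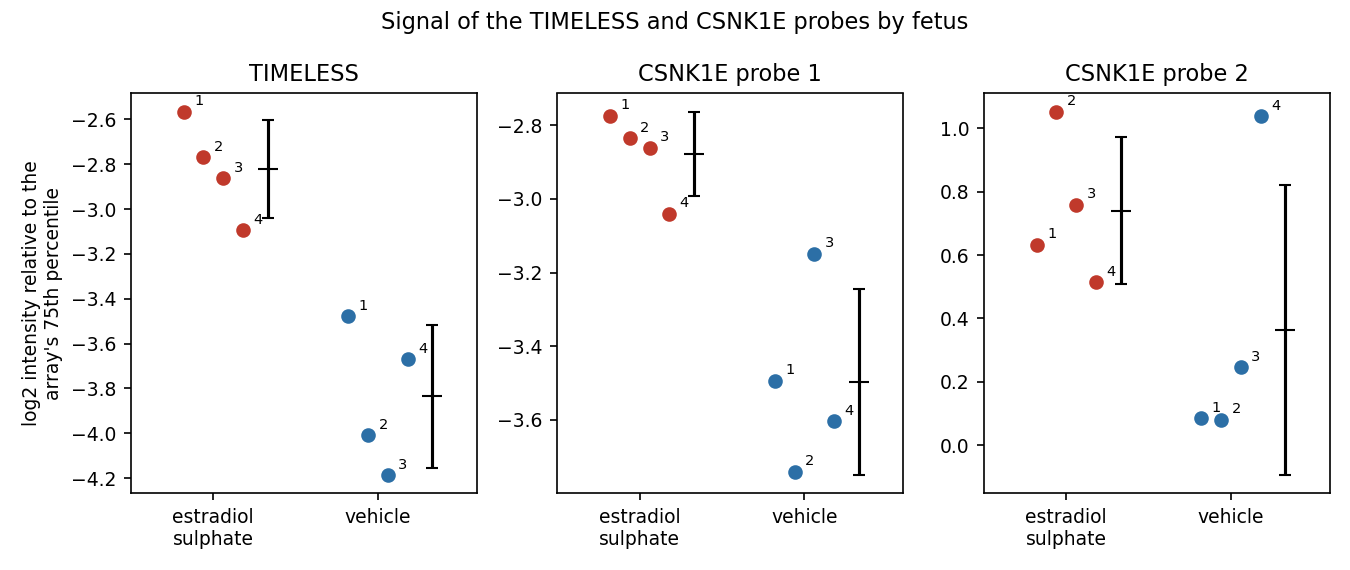
Log2 level (processed intensity relative to the 75th percentile of the array) of the 3 probes in each fetus, with the replicate number beside each point and the mean ± SD of each group (n = 4) as a bar beside the points; each panel has its own vertical axis. The estradiol sulphate fetuses lie above every vehicle fetus for *TIMELESS* and *CSNK1E* probe 1, and vehicle replicate 4 at 1.04 lies among the estradiol sulphate fetuses for *CSNK1E* probe 2.

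Set against the whole array, these differences stand in the upper part of a broad distribution in which no single probe passed. Of 11748 probes tested with limma, 0 (0.0%) passed an adjusted p of 0.05, and the smallest adjusted p was 0.249. With no adjustment, p was under 0.05 for 709 probes (6.04%) with a higher and 356 (3.03%) with a lower mean in estradiol sulphate fetuses. The groups did not overlap in 369 higher probes (3.14%), 2 of which are *TIMELESS* and *CSNK1E* probe 1, and in 325 lower probes (2.77%). Since the pair was picked on this contrast, nothing is read from that count. A larger difference than that of *TIMELESS* was found in 76 probes (0.647%), than that of *CSNK1E* probe 1 in 352 probes (3.00%), and than that of *CSNK1E* probe 2 in 1107 probes (9.42%).

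Dim probes as a whole were shifted upwards in estradiol sulphate fetuses, and *TIMELESS* and *CSNK1E* probe 1 are among the dim ones. When the probes kept were divided into 5 classes of equal size by mean level, the median difference was lower in each brighter class. The values were 0.20, 0.10, 0.06, 0.00 and -0.12 for classes 1, the dimmest of the probes kept, to 5. With quantile normalization, which makes the distribution of values alike on all arrays, the median was 0.02 in class 1 and -0.01 in class 5. *TIMELESS* and *CSNK1E* probe 1 lay in class 2, where 91 of 2349 probes (3.87%) were higher without overlap. Relative to the median of that class, *TIMELESS* was 0.92 and *CSNK1E* probe 1 0.52 higher. *CSNK1E* probe 2 lay in class 4, where 33 of 2349 probes (1.40%) were higher without overlap, and it was 0.37 above the median of its class. Over all probes kept the median difference was 0.04, which leaves 0.97 for *TIMELESS*, 0.58 for *CSNK1E* probe 1 and 0.34 for *CSNK1E* probe 2.

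**Figure D2:**
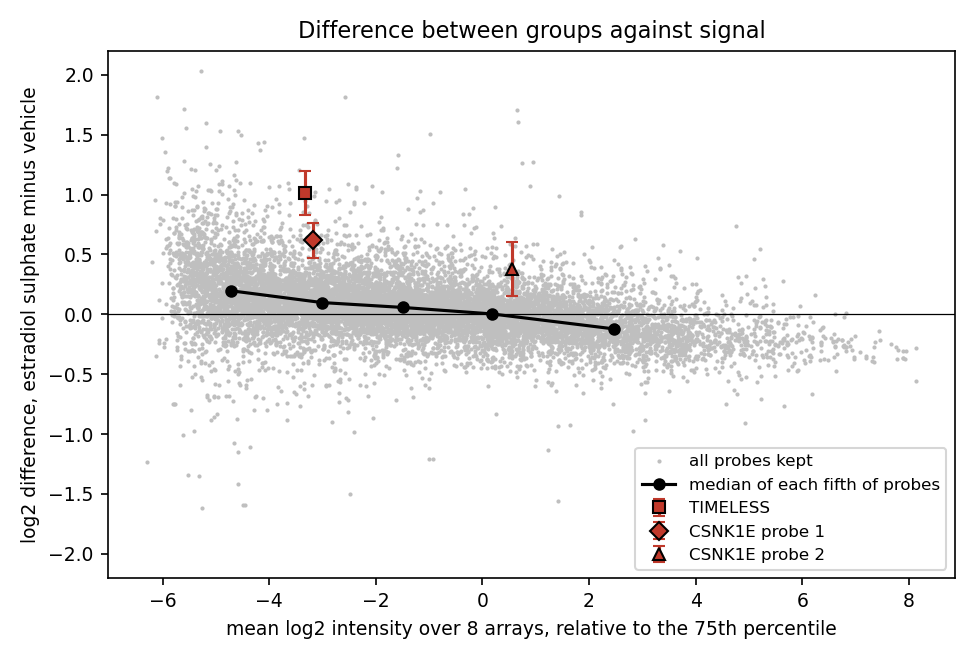
Difference between the groups (estradiol sulphate minus vehicle, log2) against mean log2 level over the 8 arrays for the 11748 probes kept; the black line joins the medians of 5 classes of equal size, and the bars on the 3 named probes are the SE. The medians run from 0.20 in the dimmest class to -0.12 in the brightest, and all 3 named probes lie above the line.

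The difference of both dim probes was smaller under the alternatives with another background correction. Each of those alternatives changed other steps as well. The processed intensity is the mean spot signal less a background that the scanner software fits over the array, followed by a detrending step. For *TIMELESS* that background was 136.4 to 143.2 in estradiol sulphate fetuses and 130.8 to 146.1 in vehicle fetuses, beside a mean spot signal of 328.9 to 458.8 in estradiol sulphate fetuses and 211.2 to 285.0 in vehicle fetuses. The local background measured around the same spots was lower, at 54.5 to 58.5 in estradiol sulphate fetuses and 53.0 to 57.5 in vehicle fetuses. With only the local background subtracted and no detrending, the difference of *TIMELESS* after scaling was 0.50. That of *CSNK1E* probe 1 was 0.29 and that of the bright *CSNK1E* probe 2 was 0.38. With a normexp background correction and quantile normalization the differences were 0.55, 0.34 and 0.39 for the same probes in that order. That correction adds an offset of 50 to every intensity. With quantile normalization of the processed intensity and no normexp step, the differences were 0.90, 0.52 and 0.40 in the same order. The parts of the offset and of the background correction in the normexp values were not tested apart. The scanner software's own error on the processed intensity of *TIMELESS* was between 10.2% and 14.5%.

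For *CSNK1E* probe 2 the alternatives with another background correction moved the value little. The loss of single fetuses moved it most, to 0.60 without vehicle replicate 4 and to 0.27 without estradiol sulphate replicate 2. Over all alternatives, which include the loss of each fetus in turn, the difference of *TIMELESS* ran from 0.50 to 1.13, that of *CSNK1E* probe 1 from 0.29 to 0.74 and that of *CSNK1E* probe 2 from 0.27 to 0.60. All of these values were above 0. With the authors' deposited log2 values, which are centred differently, the differences were 0.91 for *TIMELESS*, 0.52 for *CSNK1E* probe 1 and 0.28 for *CSNK1E* probe 2.

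**Figure D3:**
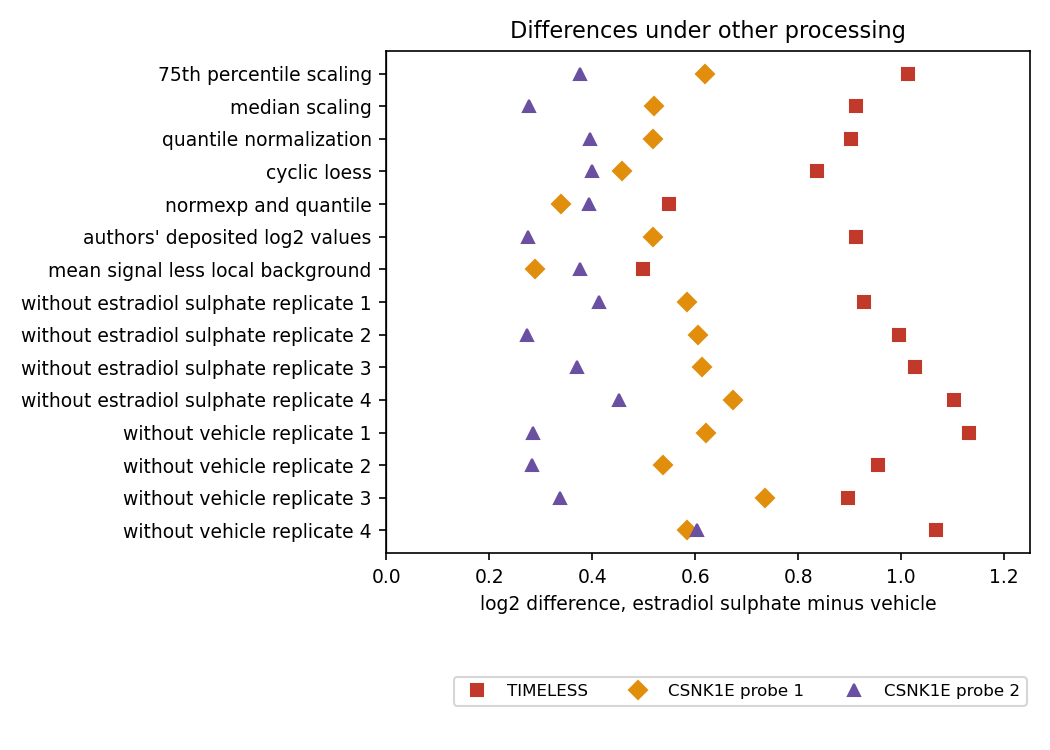
Difference between the groups (estradiol sulphate minus vehicle, log2) of the 3 probes under 15 processing choices, with the scaling to the 75th percentile at the top and the loss of single fetuses below. *TIMELESS* lies furthest right under every choice shown. Of the 2 choices with another background correction, normexp and quantile, which holds an offset of 50, gives 0.55 for *TIMELESS* and 0.34 for *CSNK1E* probe 1. The local background gives 0.50 and 0.29.

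How the 3 probes varied from fetus to fetus inside the groups is given as a description. After each group's mean was removed, the Pearson r over the 8 arrays was -0.07 between *TIMELESS* and *CSNK1E* probe 1, 0.26 between *TIMELESS* and *CSNK1E* probe 2, and -0.01 between the 2 *CSNK1E* probes. Among the estradiol sulphate fetuses replicate 4 was lowest for all 3 probes. Among the vehicle fetuses the lowest was replicate 3 for *TIMELESS* and replicate 2 for both *CSNK1E* probes. No r across both groups is given, since the groups lie apart for *TIMELESS* and *CSNK1E* probe 1.

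The other genes of the clock loop were few on the array. Of 43 symbols listed for further clock and casein kinase genes, 9 had a named probe and 7 could be tested with limma. *BMAL1* and *BMAL2* were each listed under an older and a newer symbol, so the genes are fewer than the symbols. At an unadjusted p under 0.05, 0 of the 7 were higher and 0 lower, beside 6.04% and 3.03% of all probes, and 0 passed after adjustment. A count over 7 genes is too small to read anything from that share. Their median difference was 0.05, beside 0.04 over all probes. With the scaling to the 75th percentile 5 of the 7 were above 0 and 2 below, but *BMAL1*, *PER3*, *CRY1* and *BHLHE40* turned below 0 when arrays were centred on the median or taken from the authors' deposited log2 values, and *PER3* and *BHLHE40* also under quantile normalization.

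*BMAL1*, the positive arm of the loop, had a mean log2 level of 0.65 ± 0.14 in estradiol sulphate fetuses and 0.60 ± 0.08 in vehicle fetuses (SD, n = 4 each), a difference of 0.05 (SE 0.12, limma adjusted p = 0.928). The probe for its partner *CLOCK* was well above background on 1 estradiol sulphate array and 0 vehicle arrays, so it was not tested and no fold is given. The repressor gene *PER2* had 3 probes. The brightest gave 0.60 ± 0.33 in estradiol sulphate fetuses and 0.85 ± 0.33 in vehicle fetuses (SD, n = 4 each), a difference of -0.25 (SE 0.21, limma adjusted p = 0.779). The other *PER2* probes differed by -0.20 and 0.08. With single fetuses left out, the brightest probe ran from -0.35 without vehicle replicate 3 to -0.10 without estradiol sulphate replicate 4. The paralogue *PER3* differed by 0.05 (SE 0.14, limma adjusted p = 0.958), and its second probe by 0.06.

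*CRY1*, the other repressor, had a log2 level of -1.36 ± 0.39 in estradiol sulphate fetuses and -1.45 ± 0.29 in vehicle fetuses at its brightest probe (SD, n = 4 each), a difference of 0.08 (SE 0.22, limma adjusted p = 0.947). Its second probe gave -0.45, a value set by vehicle replicate 3, which was at -2.11 while the other vehicle fetuses lay between -5.51 and -4.89. *DBP*, a transcription factor driven directly by the loop, was at -1.49 ± 0.04 in estradiol sulphate fetuses and -1.41 ± 0.13 in vehicle fetuses (SD, n = 4 each), a difference of -0.09 (SE 0.11, limma adjusted p = 0.859). The repressor *BHLHE40* was near background, being well above it on 3 estradiol sulphate arrays and 1 vehicle array, and differed by 0.07 (SE 0.45, limma adjusted p = 0.983), with values from -0.25 to 0.44 when single fetuses were left out.

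The kinase closest to *CSNK1E*, *CSNK1D*, was measured by 1 probe. Its log2 level was -1.73, -2.23, -2.0 and -2.11 in estradiol sulphate replicates 1 to 4, against -2.10, -2.10, -1.98 and -2.63 in vehicle replicates 1 to 4. The groups overlapped, with 1 of 4 estradiol sulphate fetuses above every vehicle fetus. The difference was 0.18 (SE 0.17, limma adjusted p = 0.806). It ran from 0.04 to 0.26 over the alternatives. Of the other genes for PER and CRY turnover, *PRKAA2*, a catalytic subunit of AMP-activated kinase, was well above background on at most 2 estradiol sulphate arrays and 0 vehicle arrays and was not tested.

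**Figure D4:**
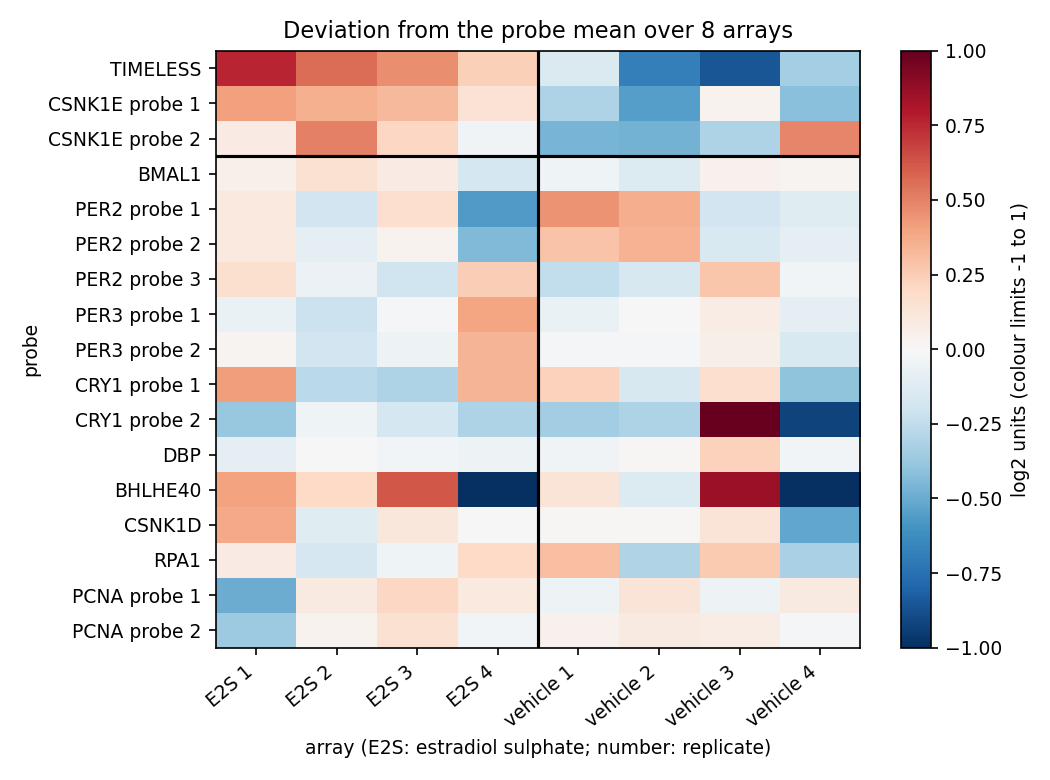
Log2 level of each probe on each array as the deviation from that probe's mean over the 8 arrays, with estradiol sulphate (E2S) arrays left of the vertical line and *TIMELESS* and *CSNK1E* above the horizontal line; the colour scale ends at -1 and 1, and larger deviations have the end colour. *TIMELESS* is above its mean on all 4 estradiol sulphate arrays and below it on all 4 vehicle arrays, while the clock probes below the line show no such division.

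*TIMELESS* also belongs to the replication fork, and of 30 listed partners and fork components 2 had a named probe. *PCNA*, the sliding clamp of DNA polymerase, was at -0.30 ± 0.32 in estradiol sulphate fetuses and -0.25 ± 0.09 in vehicle fetuses (SD, n = 4 each), a difference of -0.05 (SE 0.16, limma adjusted p = 0.959). Estradiol sulphate replicate 1, at -0.77, was far below the others of its group, and without it the difference was 0.10. *RPA1*, the large subunit of the single-strand binding complex, differed by 0.03 (SE 0.18, limma adjusted p = 0.983), with 4 estradiol sulphate and 2 vehicle arrays well above background. Its sign turned, with values of -0.07 under median scaling and with the authors' deposited log2 values, -0.17 under quantile normalization and -0.10 under cyclic loess.

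Among proliferation genes, 11 of 22 listed were tested and 8 lay above 0 and 3 below, with a median of 0.08 beside 0.04 over all probes, while *CDK1*, *CCNB1*, *CDKN1B* and *AURKA* turned below 0 under quantile normalization. At an unadjusted p under 0.05 in limma 1 was higher and 0 lower, beside 6.04% and 3.03% of all probes, a share from which nothing is read about the list. That gene was *CCND2*, a D-type cyclin, with a difference of 0.56 (SE 0.21, limma adjusted p = 0.516) and 2 of 4 estradiol sulphate fetuses above every vehicle fetus. *CCND3*, another D-type cyclin, differed by 0.17 (SE 0.11, limma adjusted p = 0.696). Its groups did not overlap, as in 3.14% of all probes, and without estradiol sulphate replicate 1 the difference was 0.10. The cell cycle inhibitor gene *CDKN1C* differed by 0.16 (SE 0.13, limma adjusted p = 0.765), and *TYMS*, which supplies thymidylate for DNA synthesis, by -0.24 (SE 0.21, limma adjusted p = 0.784). With single fetuses left out, *CCND2* ran from 0.37 to 0.67, *CCND3* from 0.10 to 0.20, *CDKN1C* from 0.10 to 0.22 and *TYMS* from -0.44 to -0.12.

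**Figure D5:**
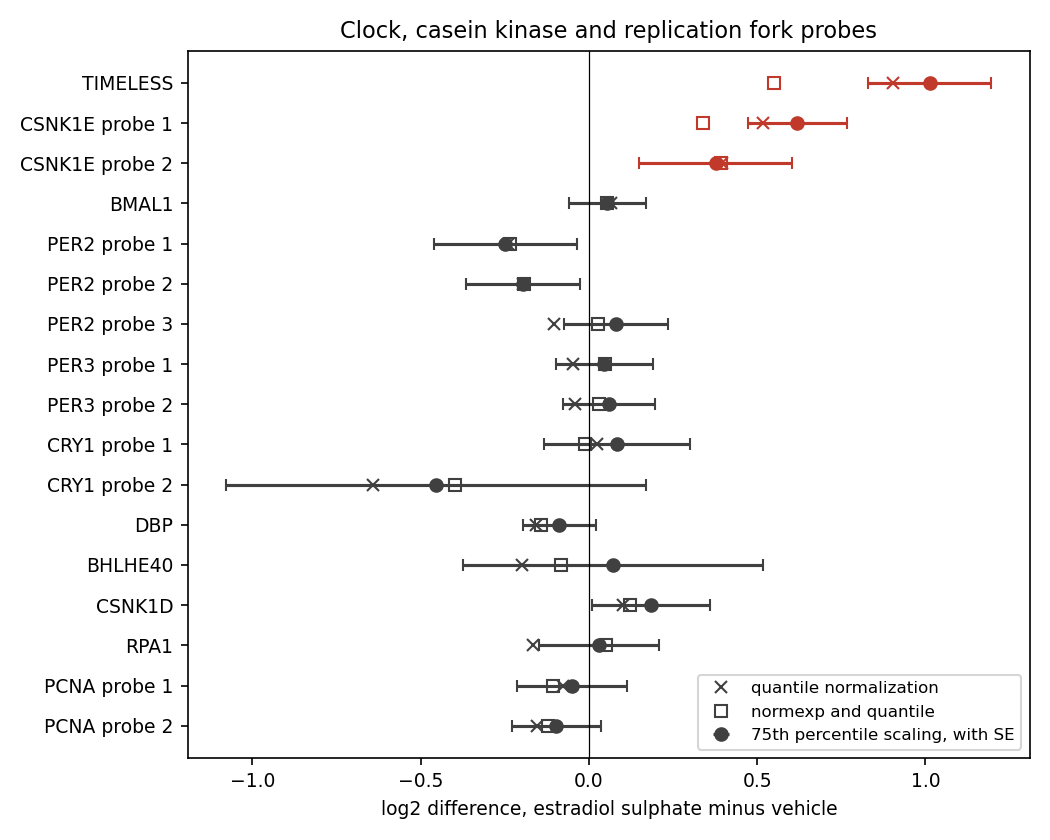
Difference between the groups (estradiol sulphate minus vehicle, log2) for every tested probe of *TIMELESS*, *CSNK1E* (red), the other clock and casein kinase genes and the replication fork genes (grey); filled points with bars are the main scaling with the SE, crosses and open squares are 2 other normalizations. *TIMELESS* is at 1.01, 0.55 with normexp and quantile, and the grey points of the main scaling lie between -0.45 and 0.18.

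Of 19 listed genes of the suprachiasmatic nucleus and its light input, 4 were tested, and 3 lay above 0 and 1 below. At their brightest probe 0 were past an unadjusted p of 0.05 in limma, beside 6.04% of all probes higher and 3.03% lower, and 4 genes are too few to read anything from that. *GRP*, which encodes gastrin-releasing peptide of light-receiving neurons, differed by -0.35 (SE 0.21, limma adjusted p = 0.655). *ADCYAP1*, the gene of the transmitter PACAP that carries light signals from the retina, differed by 0.39 (SE 0.47, limma adjusted p = 0.857), and its receptor gene *ADCYAP1R1* by 0.15 (SE 0.19, limma adjusted p = 0.862). The cAMP-responsive regulator *CREM* differed by 0.12 (SE 0.18, limma adjusted p = 0.897), and the signs of *ADCYAP1R1* and *CREM* turned below 0 under cyclic loess and that of *CREM* under quantile normalization. A second, dimmer *CREM* probe differed by 0.31 (SE 0.13, limma unadjusted p = 0.0462, adjusted p = 0.542). With single fetuses left out, *GRP* ran from -0.49 without vehicle replicate 3 to -0.17 without vehicle replicate 1, and *ADCYAP1* from 0.08 without estradiol sulphate replicate 2 to 0.70 without vehicle replicate 4.

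For melatonin and the pars tuberalis, the part of the pituitary stalk that reads day length, 3 of 10 listed genes were tested and 2 lay above 0. The melatonin receptor gene *MTNR1A* differed by -0.15 (SE 0.16, limma adjusted p = 0.830) and was well above background on 3 estradiol sulphate arrays and 1 vehicle array. *AANAT*, the melatonin synthesis enzyme, differed by 0.02 (SE 0.17, limma adjusted p = 0.988), with its sign turning under every other normalization tried. *CGA*, the shared subunit of pituitary glycoprotein hormones, differed by 1.81 (SE 1.37, limma adjusted p = 0.746) and spread widely within both groups, its difference running from 1.07 without estradiol sulphate replicate 4 to 2.87 without vehicle replicate 4. The *CGA* probe was well above background on 4 estradiol sulphate and 2 vehicle arrays, so it was kept only through the estradiol sulphate group. *MTNR1A* ran from -0.24 to -0.035 with single fetuses left out.

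Casein kinase 1 epsilon also acts in Wnt signalling, where it phosphorylates Dishevelled proteins. Of 22 Wnt genes listed 3 were tested and all lay above 0, beside 57.5% of all probes. At an unadjusted p under 0.05 in limma 1 of the 3 was higher, beside 6.04% of all probes. That was *LEF1*, a transcription factor of the pathway, at -3.99 ± 0.26 in estradiol sulphate fetuses and -5.09 ± 0.15 in vehicle fetuses (SD, n = 4 each), a difference of 1.09 (SE 0.15, limma adjusted p = 0.249). Its probe exceeded background clearly on 4 estradiol sulphate arrays and 1 vehicle array, so it was kept only through the group in which it is brighter, and nothing is read from that count. With normexp and quantile its difference was 0.40, and the groups overlapped at its second probe, which differed by 1.08. *WNT5A* differed by 0.13 (SE 0.13, limma adjusted p = 0.822) and the receptor gene *FZD2* by 0.02 (SE 0.41, limma adjusted p = 0.995), the sign of *FZD2* turning below 0 when arrays were centred on the median.

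The genes whose pattern over the 8 arrays was most like that of each probe were ranked by Pearson r among 726 other named genes. These r values hold the difference between the groups as well as the spread within them, so the r after removal of the group means, called within groups, is given beside each, and neither carries a test. For *TIMELESS* the highest r belonged to *SCNN1A*, a sodium channel subunit, at 0.95, with 0.79 within groups. *LEF1* had 0.91 and 0.41 within groups, and *IL13RA1*, an interleukin receptor subunit, 0.91 and 0.66. *AGRP*, the appetite peptide of the arcuate nucleus, had 0.91 with 0.84 within groups, and the endoplasmic reticulum chaperone *HSPA5* 0.91 with 0.80. Some of these genes were dim in vehicle fetuses, where *SCNN1A* lay between -5.69 and -5.32. *LEF1* was well above background on 1 vehicle array and *AGRP* on 2, so part of their vehicle values is near background. Low r values were -0.94 for *SFTPC*, with -0.58 within groups, and -0.88 for the prostaglandin D synthase gene *PTGDS*, with -0.78 within groups.

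For *CSNK1E* probe 1 the highest r was 0.90 with *TIMP3*, an inhibitor of matrix proteases, and 0.86 within groups. Next came *IL13RA1* at 0.89 with 0.59 within groups and the opioid receptor gene *OPRM1* at 0.88 with 0.67 within groups. *PRND* had 0.87 with 0.69 within groups, and the collagen gene *COL1A1* 0.87 with 0.58 within groups. The lowest were *ASIP* at -0.87 with -0.63 within groups, *EEF1E1* at -0.87 with -0.86 within groups, and *CHID1* at -0.845 with -0.38 within groups. *IL13RA1* stood in the highest 5 of both *TIMELESS* and *CSNK1E* probe 1.

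For *CSNK1E* probe 2 the r within groups was close to the r over all arrays. The glutamate receptor gene *GRM5* reached an r of 0.99, with 0.98 within groups, followed by *COL12A1* at 0.96 with 0.96 within groups and the heterochromatin protein gene *CBX5* at 0.93 with 0.97 within groups. *UGT1A9* had 0.93 with 0.90 within groups and the prostaglandin F receptor gene *PTGFR* 0.91 with 0.93 within groups. In all 5 genes vehicle replicate 4 lay above the other vehicle fetuses, as in *CSNK1E* probe 2. For *GRM5* it was at -2.71, against -3.41 to -3.35 in the other vehicle fetuses. Without that array the r of *GRM5* was still 0.99. The lowest r values were -0.90 for *SLC25A11* with -0.915 within groups, -0.88 for *TYMS* with -0.865 within groups, and -0.88 for *SLC66A2* with -0.89 within groups. None of the highest 5 was shared with *CSNK1E* probe 1.

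Facts of the arrays as a whole touch these values. The 75th percentile of processed intensity ran from 1584 to 2252 in estradiol sulphate fetuses and from 969 to 1609 in vehicle fetuses, and 77.0% to 83.1% of probes were well above background in estradiol sulphate fetuses and 67.8% to 77.4% in vehicle fetuses. All 8 arrays lay on 1 slide, where the estradiol sulphate arrays filled one column and the vehicle arrays the other, so the column of the slide and the infusion cannot be told apart. The tissue label was checked on hypothalamic peptides, of which *POMC*, *NPY*, *OXT*, *SST* and *PMCH* were well above background on all 8 arrays, and *AGRP* and *GHRH* on 4 estradiol sulphate and 2 vehicle arrays. Pan-neuronal and oligodendrocyte markers had no named probe. Of the pituitary genes, *LHB* and *PRL* were well above background on all 8 arrays at their brightest probe and *GH*, *POU1F1* and *FSHB* on 0. *CGA* was so on 4 estradiol sulphate and 2 vehicle arrays, and the second *PRL* probe on 2 and 3. The 2 *LHB* probes lay far apart, at mean log2 levels of 4.50 and -2.96.

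The median difference of some marker lists was above 0, as for *TIMELESS* and *CSNK1E*, and that of others was not. It was -0.02 for microglia and leukocytes (2 genes tested), -0.05 for pituitary genes (3 tested) and -0.05 for dividing progenitors (1 tested). A single tested gene stood for choroid plexus and ependyma, at 0.89, and for erythroid cells, at 0.40. All 5 tested astrocyte genes were above 0 at their brightest probe, while the second *GJA1* probe was at -0.12. Their median was 0.32, with a summed scaled level of 21.9 to 44.1 in estradiol sulphate fetuses and 15.3 to 39.1 in vehicle fetuses. All 4 genes of meninges and fibroblasts were above 0, with a median of 0.36 and a summed level of 1.83 to 5.70 in estradiol sulphate fetuses and 2.09 to 4.32 in vehicle fetuses. The 3 tested endothelial genes were above 0, with a median of 0.31 and a summed level of 0.589 to 0.879 in estradiol sulphate fetuses and 0.489 to 0.686 in vehicle fetuses. Of the 7 hypothalamic peptide genes 5 were above 0, with a median of 1.27 and a summed level of 13.6 to 41.1 in estradiol sulphate fetuses and 21.9 to 35.6 in vehicle fetuses. With normexp and quantile, the median was 0.21 for astrocytes, 0.10 for meninges and fibroblasts, 0.16 for endothelium and 1.24 for the hypothalamic peptides, and the astrocyte gene *GJA1* and the collagen gene *COL1A2* turned below 0. The endothelial genes *FLT1* and *KDR* were well above background on 4 estradiol sulphate arrays each and on 0 and 2 vehicle arrays. *COL3A1* was so on 4 and 0, and the peptide genes *AGRP* and *GHRH* on 4 and 2 each. All of these genes were kept only through the estradiol sulphate group, so nothing is read from the counts and medians that hold them. *AGRP* at 3.66 and *GHRH* at 2.57 had the largest differences of the peptide list. The endothelial gene *TEK* was not tested. All of these sums overlapped between the groups, 57.5% of all probes were above 0, and the part of these cell types in the differences of *TIMELESS* and *CSNK1E* was not tested.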

How the data were processed

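Spot intensity was extracted with Agilent Feature Extraction 10.1.1.1 from 1-colour scans, per the file headers, and the deposited processed intensity is background-subtracted and detrended within each array but not normalized between arrays. The authors also deposited log2 values, which equal log2 processed intensity minus 1 constant per array and served as an alternative. After removal of control spots and 66 outlier-flagged spots, the spots of each probe were averaged and each array's own 75th percentile was subtracted on the log2 scale. Probes well above background on at least 4 of 8 arrays were kept (11748 of 15008). Groups were compared over all of them with limma 3.58.1 in R 4.3.3 (group only, two-sided, Benjamini-Hochberg, threshold 0.05), a script tested on simulated data. For each gene the probe with the highest mean level stands. Names came from the design's annotation and a RefSeq gene table of ARS-UI_Ramb_v3.0, for 1489 probes. *TIMELESS*, *CSNK1E* and all gene lists were chosen with earlier results of these data known. Named genes are every measured clock, casein kinase and fork gene, up to 4 of each other list by smallest p, and the 5 genes most and 3 least like each probe, of which 1 is not reported here. The labels do not tie replicate numbers to twins, so the main model holds no pairs although the fetuses were co-twins. Same-numbered arrays deviated together in 3 of 4 pairs (r of 0.237, -0.012, 0.192 and 0.246). Differently numbered arrays were not compared, so these values cannot decide whether the numbers mark twins. Alternatives were other scalings, background corrections and filters, a replicate block, a trended prior and the loss of each array. Arrays within a group correlated at 0.972 to 0.991. Precision is limited by 4 arrays per group.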

Additional observations from a re-analysis of the deposited data

Results flagged for a closer look

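Of 52 groups of 4 arrays examined for 1 array far from the rest, 2 held one, where chance gives about 2.6. *PCNA* in estradiol sulphate replicate 1 was at -0.77 on the log2 scale, while the other estradiol sulphate fetuses lay between -0.19 and -0.07. *CCND3* in the same fetus was at 0.02, while the others of its group lay between -0.30 and -0.24. The nearest among the *TIMELESS* and *CSNK1E* probes was *CSNK1E* probe 2 in vehicle replicate 4, where the gap to the next fetus was 0.828 of the group's range, just under the limit used.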

How the results depend on the processing

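No probe passed the adjusted threshold under any of 17 alternatives. The 709 higher and 356 lower probes at an unadjusted p under 0.05 became 344 and 750 with median scaling and 344 and 760 with the authors' deposited log2 values, which move the median of all probes by about -0.10, from 0.04 to -0.06. Higher probes numbered 399 with quantile normalization, 445 with cyclic loess, 424 with normexp and quantile, and 462 among probes well above background on all arrays, and lower probes 1218 with no filter. Without single fetuses, higher probes numbered 466 (without vehicle replicate 2) to 900, and lower ones 188 (without estradiol sulphate replicate 2) to 393. With the replicate number as a block, 789 were higher and 369 lower, *TIMELESS* stayed at 1.01 and the *CSNK1E* probes at 0.62 and 0.38. *TIMELESS* moved to 0.55 and *CSNK1E* probe 1 to 0.34 with normexp and quantile, to 0.50 and 0.29 with the local background, and the other *CSNK1E* probe gave 0.38. Without single fetuses *TIMELESS* ran from 0.90 to 1.13, *CSNK1E* probe 1 from 0.54 to 0.74 and *CSNK1E* probe 2 from 0.27 to 0.60. The cause of these moves was not tested.

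For 23 other named genes, 46 of 386 alternative values changed sign, in 10 genes. Under median scaling *BMAL1* gave -0.0455, *PER3* -0.0545, *CRY1* -0.0159, *BHLHE40* -0.0285, *RPA1* -0.0710, *AANAT* -0.0813 and *FZD2* -0.0838, and with the authors' values -0.0471, -0.0560, -0.0175, -0.0300, -0.0725, -0.0829 and -0.0853 in that order. Quantile normalization gave -0.0465 for *PER3*, -0.20 for *BHLHE40*, -0.17 for *RPA1*, -0.0113 for *CREM* and -0.0611 for *AANAT*. Cyclic loess gave -0.11 for *PER3*, -0.10 for *RPA1*, -0.0822 for *ADCYAP1R1*, -0.13 for *CREM* and -0.0774 for *AANAT*. Normexp and quantile gave -0.0126 for *CRY1*, -0.0819 for *BHLHE40* and -0.0633 for *AANAT*. Without single fetuses *PER3* ran from -0.0777 to 0.12, *CRY1* from -0.0399 to 0.20, *BHLHE40* from -0.25 to 0.44, *PCNA* from -0.13 to 0.10, *RPA1* from -0.0719 to 0.13, *AANAT* from -0.0817 to 0.14, *FZD2* from -0.24 to 0.44, *ADCYAP1R1* from -0.0424 to 0.27 and *CREM* from -0.0331 to 0.20.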
